A study of Mus musculus with 12 samples.

Results

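DNMT3B K777A is a form of the human de novo DNA methyltransferase DNMT3B in which the lysine K777 is replaced by alanine, and its CpG methylation in cells was compared here with that of wild type (WT) DNMT3B. The comparison holds 4 of the 12 cell lines of the series, 2 K777A lines and 2 WT lines. All of them derive from TKO mouse embryonic stem cells, which lack Dnmt1, Dnmt3a and Dnmt3b, and carry Flag-tagged DNMT3B1, the isoform 1 of human DNMT3B, in the vector pPyCAGIZ, which has a CAG promoter. Zeocin selected the transfected cells at 50 μg/mL and was kept at 25 μg/mL afterwards. The 2 lines of a group were derived independently, the labels do not say whether a line is a pool or a single clone, and the amount of DNMT3B protein per line was not analysed here. The WT lines are those whose library names carry the same prefix as the K777A libraries. The other 2 WT lines of the series entered alternatives only.

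De novo methyltransferases add a methyl group to cytosines of unmethylated CpG sites. TKO cells lack Dnmt3a and Dnmt3b, which are of this kind, and the maintenance enzyme Dnmt1. A form of DNMT3B was put back into cells without these enzymes. K777 lies in the loop of the target recognition domain that reads the CpG, and it faces the base at the +1 position, directly after the CpG. The bases farther out, at 2 and 3 positions from the CpG, lie beyond it and are described here together with CpG density and genome region.

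Methylation was measured by eRRBS, in which DNA is cut with restriction enzymes (MspI, BfaI and MseI), treated with bisulfite and sequenced. Of 20383623 autosomal CpG sites, 8916128 and 10375135 had at least 1 read in the K777A lines. In the WT lines these were 3497578 and 4602413 sites, and 1422169 were covered in all 4. The reads on these sites numbered 22926330 and 35245822 for K777A and 16174462 and 16388666 for WT. The mean depth was 2.57 and 3.40 reads per covered site in K777A cells and 4.62 and 3.56 in WT cells, so that single sites were read with little precision and values are mostly means over many sites. Each site was given the fraction of its reads that were methylated, and averaging these fractions over the covered sites gave the level of a line. K777A covered more sites at lower depth than WT. Results were recomputed on the sites covered in all lines and with higher read minimums.

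The methylation level over covered autosomal sites was 6.59% and 7.68% in the K777A lines and 13.8% and 12.7% in the WT lines. The means were 7.14% ± 0.775 and 13.2% ± 0.800 (SD, n = 2), and K777A cells reached 53.9% of the WT level. Both K777A lines lay below both WT lines, with a difference of −6.09 percentage points (two-sided exact permutation test, p = 0.33, which is the lowest value that a design of 2 against 2 can give). On the sites covered in all 4 lines, the levels were 6.57% and 7.46% in K777A and 13.4% and 12.4% in WT cells. All 19 autosomes showed lower levels in both K777A lines. The K777A mean ranged from 52.5% of WT on chromosome 11 to 55.4% on chromosome 3.

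The loss was of similar relative size in most classes of CpG density, counted as CpG sites in a window of 200 bp around each site. At 1 CpG per 200 bp, methylation was 7.37% and 8.28% in the K777A lines and 14.2% and 13.1% in the WT lines, or 57.2% of WT. The K777A mean was 54.6% of WT at 2 CpG sites, 52.0% at 3 to 4, 49.6% at 5 to 7 and 50.1% at 8 to 11. At 12 or more CpG sites, where methylation was low in all lines, it was 1.35% and 1.24% in K777A and 1.99% and 1.84% in WT cells, or 67.6% of WT. K777A lines lay below WT lines in each of the 6 classes. The log2 ratio of the level at 1 CpG to that at 12 or more was 2.45 and 2.74 in K777A cells and 2.84 and 2.84 in WT cells. The lines of both groups did not overlap, but the difference of −0.24 was close to the SD of the K777A lines, 0.21 (exact permutation test, two-sided p = 0.33). On sites covered in all lines it was −0.12, and with at least 10 reads −0.11. Without K777A replicate 1 it was −0.096, without K777A replicate 2 it was −0.39, and 1 of the other WT lines, at 2.50, lay between the K777A lines.

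**Figure D1:**
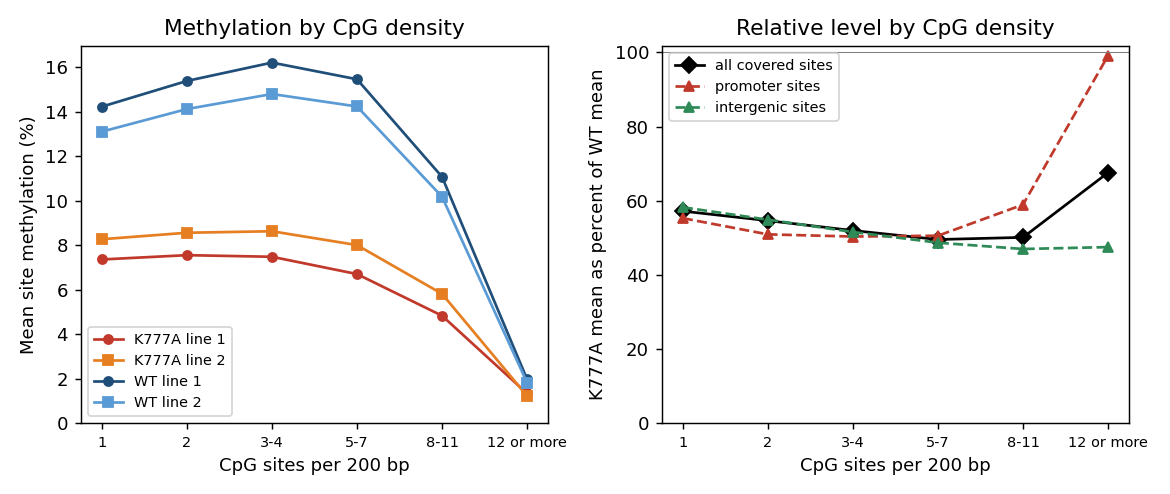
Left, mean site methylation (%) of each line against the number of CpG sites per 200 bp. Right, the K777A mean as percent of the WT mean for all covered sites, promoter sites and intergenic sites, with a grey line at equal levels. The K777A lines run below the WT lines at every density, and the relative level rises to 99.1% in CpG-dense promoters but is 47.5% at equally dense intergenic sites.

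The smaller relative loss at dense sites differed between genome regions. At sites with 12 or more CpG per 200 bp in promoters (from 1000 bp before to 500 bp after the start of a protein-coding gene), methylation was 0.931% and 0.507% in the K777A lines and 0.744% and 0.707% in the WT lines, so that the lines overlapped. Outside promoters, sites of this class kept the lower level of K777A. The class has no upper limit, and density within it was not compared between regions. Intergenic sites of this class were methylated to 2.53% and 3.21% in K777A and 6.54% and 5.53% in WT cells, or 47.5% of WT. In dense exons and introns, the K777A mean was 58.2% and 57.4% of WT. No line without a DNA methyltransferase was analysed here, so the signal that unconverted cytosines give at dense promoters is not known from these counts. The paper reports low rates of unconverted cytosines for its eRRBS data, and no such background was subtracted here.

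Over all densities, promoter methylation was 1.80% and 1.78% in K777A and 2.80% and 2.69% in WT cells, or 65.2% of WT. Exons reached 48.4% of WT, with 6.91% and 7.81% in K777A and 15.6% and 14.9% in WT cells. Introns were at 53.7% and intergenic sites at 53.1%. The log2 ratio of intron to promoter methylation was 2.11 and 2.32 in K777A and 2.52 and 2.48 in WT cells, a difference of −0.28 without overlap (exact permutation test, two-sided p = 0.33). It was −0.18 without K777A replicate 1, −0.39 without K777A replicate 2 and −0.15 on sites covered in all lines, and it turned to 0.014 with at least 5 reads and 0.14 with at least 10 reads. Without sites of 12 or more CpG per 200 bp, the difference turned to 0.032.

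Regions differ in CpG density and in the bases next to the CpG, which the mutation affects. Each region was therefore compared with the level expected from a line's own mean at the same density class and the same bases at −1 and +1. The ratio of observed to expected methylation in exons was 1.25 and 1.197 in the K777A lines 1.22 and 1.26 in the WT lines, which overlapped. In introns it was 1.10 and 1.08 in K777A and 1.08 and 1.10 in WT cells, and in intergenic sites 0.922 and 0.945 in K777A and 0.955 and 0.930 in WT cells. Promoters had ratios of 0.606 and 0.509 in K777A and 0.478 and 0.4997 in WT cells, where the lines did not overlap. Repeat-masked sequence showed a small shift. Its level divided by that of unmasked sequence was 1.01 and 0.986 in the K777A lines and 1.04 and 1.06 in the WT lines.

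**Figure D2:**
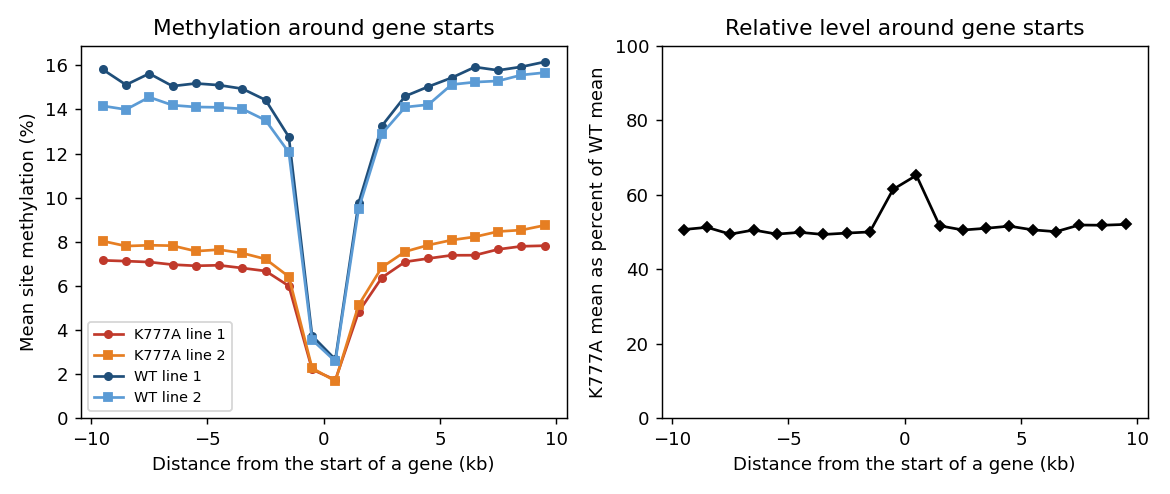
Left, mean site methylation (%) of each line in bins of 1 kb around the starts of protein-coding genes. Right, the K777A mean as percent of the WT mean in the same bins. All 4 lines dip at the start, and the relative level is near 50% except in the 1 kb before the start (61.5%) and the 1 kb after it (65.2%).

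Around the starts of protein-coding genes, methylation dipped in all lines. In the 1 kb after the start, it was 1.74% and 1.68% in K777A and 2.66% and 2.58% in WT cells. Between 1 and 2 kb after the start, levels were already 4.82% and 5.13% in K777A and 9.76% and 9.50% in WT cells, or 51.7% of WT.

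The outer flanking bases were examined next. Because both strands of a CpG were collapsed by the authors, a base at −2 cannot be told apart from its complement at +2, and each context was merged with its reverse complement. Methylation was standardized by averaging over all bases at the remaining positions with equal weights, and the share of a base is its standardized level divided by the sum over the 4 bases. At −2, the share of T was 32.4% and 32.5% in the K777A lines and 27.7% and 27.7% in the WT lines. The share of T was thus higher by 4.79 percentage points, far more than the SD of 0.045 in K777A and 0.023 in WT cells, and the lines did not overlap (exact permutation test, two-sided p = 0.33). The other bases had lower shares than in WT cells. C was at 22.3% and 22.2% against 23.9% and 23.96%, G at 21.7% and 21.8% against 23.9% and 23.9%, and A at 23.5% and 23.5% against 24.5% and 24.4%.

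At −3, the order of C and G was exchanged. The share of C was 26.3% and 26.5% in K777A and 23.8% and 23.9% in WT cells, and that of G was 22.9% and 22.9% in K777A and 25.9% and 26.0% in WT cells. T had the highest share at −3 in all 4 lines, with 28.0% and 27.9% in K777A and 26.7% and 26.7% in WT cells. None of these shares overlapped between the groups.

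**Figure D3:**
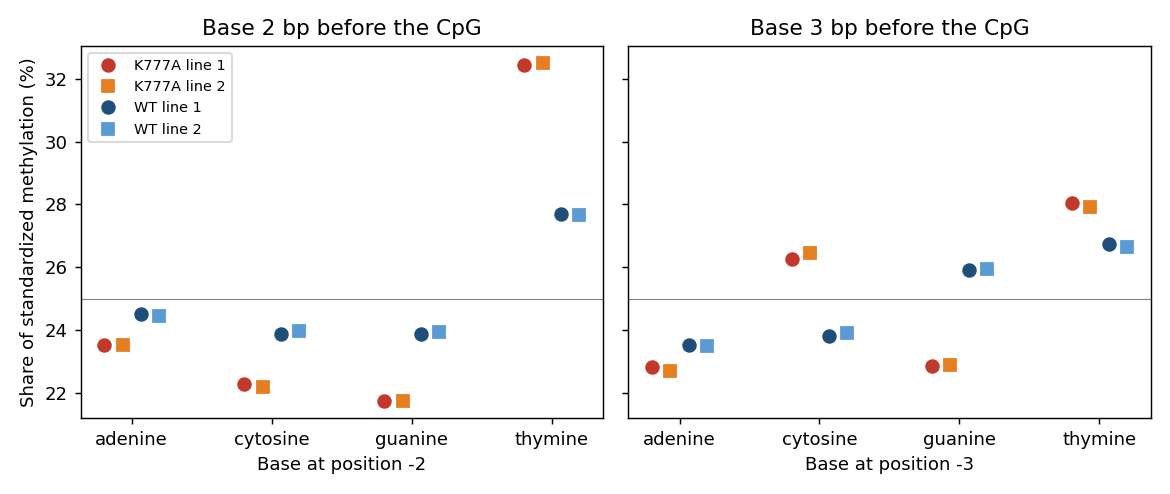
Share of standardized methylation (%) of each base at position −2 (left) and −3 (right), with 1 point per line and a grey line at equal shares of 25%. At −2, thymine stands at 32.4% and 32.5% in the K777A lines and at 27.7% in both WT lines, and at −3 cytosine lies above guanine in K777A and below it in WT cells.

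In absolute levels, T was the base at −2 with the smallest loss, with a difference of −5.03 percentage points where A, C and G had differences between −5.90 and −6.11. Some bases at other positions lost less, such as C at −3 with −4.79 and G at −1 with −1.60. CpG sites with T at −2 on neither strand were methylated to 5.28% and 6.07% in K777A and 12.4% and 11.4% in WT cells, or 47.7% of WT. With T on 1 strand, the levels were 7.64% and 8.87% in K777A and 14.2% and 12.999% in WT cells, or 60.8% of WT. With T on both strands, they were 10.9% and 12.5% in K777A and 16.6% and 15.1% in WT cells, or 74.0% of WT. Taking −3 and −2 together, CT and TT were methylated to 70.1% and 69.9% of WT, and GG and GA to 43.7% and 46.0%. GT, the pair with the highest level in WT cells (16.5% and 15.0%), was at 8.09% and 9.35% in K777A cells, below CT at 9.12% and 10.6% and TT at 9.45% and 10.98%.

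The higher share of T at −2 was seen at every CpG density. At 1 CpG per 200 bp, its share was 31.8% and 31.7% in K777A and 25.1% and 25.1% in WT cells, here over the contexts that need no neighbouring CpG. At 5 to 7 CpG sites, it was 32.2% and 31.9% in K777A and 25.6% and 25.6% in WT cells. At 12 or more, the share was 29.7% and 31.4% in K777A and 27.8% and 26.3% in WT cells, with no overlap but a wider spread between lines.

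The share of T at −2 depended on the bases at −1 and +1, and did so less in K777A cells. Within each of the 16 inner contexts (the bases at −1 and +1), T was the base with the highest share at −2 in 16 of 16 in both K777A lines. In the WT lines, it was the highest in 8 and 7 of 16. CCGA sites showed the largest shift. Their share of T at −2 was 36.0% and 36.8% in K777A and 20.8% and 20.6% in WT cells, the lowest T share of all inner contexts in WT. CCGC sites had 37.3% and 38.3% in K777A and 25.3% and 25.0% in WT cells, and CCGG sites had 36.5% and 37.8% against 25.1% and 25.3%. In contrast, the share of T at ACGC sites was 34.3% and 33.3% in K777A and 37.1% and 37.1% in WT cells, and at ACGT sites 31.9% and 31.4% against 33.8% and 34.1%. The K777A lines were higher without overlap in 12 inner contexts and lower in 4. Over the 16 inner contexts, the SD of the T share was 2.69 and 3.10 percentage points in K777A and 4.93 and 5.09 in WT cells.

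**Figure D4:**
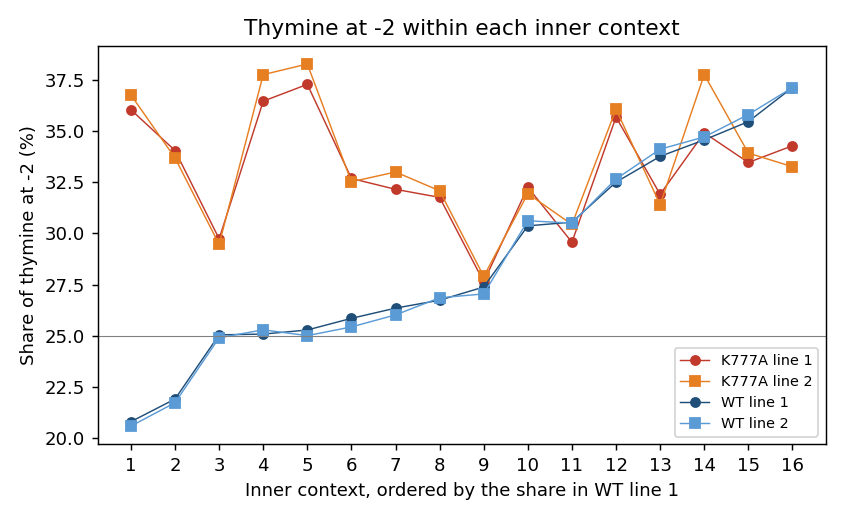
Share of thymine at −2 (%) within each of the 16 inner contexts, which are ordered by the share in WT line 1, with 1 line of points per cell line and a grey line at 25%. The WT lines rise from 20.8% and 20.6% to 37.1%, while the K777A lines stay between 27.6% and 38.3% without following that order.

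The inner contexts themselves lost methylation to very different degrees, which is the background of these shares. Standardized over the outer bases, CCGG sites were methylated to 1.74% and 1.75% in K777A and 18.9% and 17.5% in WT cells, or 9.60% of WT. CCGA sites were at 18.98% of WT and TCGA sites at 39.8%. GCGC sites, with 4.53% and 4.91% in K777A and 4.76% and 4.44% in WT cells, overlapped between the groups, and so did ACGC sites. ACGT sites were at 13.6% and 16.1% in K777A and 13.4% and 12.4% in WT cells. The other 2 WT lines, at 16.2% and 15.5%, overlapped with K777A at ACGT sites and had the higher mean.

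How strongly each position was read was described by an additive fit of the log2 odds of all contexts on the bases at positions 1, 2 and 3 of both strands. The SD over the 4 bases of the fitted effect at position 2 was 0.28 and 0.30 in K777A and 0.15 and 0.14 in WT cells, a difference of 0.14 (exact permutation test, two-sided p = 0.33). At position 1, it was 0.59 and 0.64 in K777A and 0.47 and 0.46 in WT cells, and at position 3 it was 0.15 and 0.15 against 0.09 and 0.09. The fit covered more of the variation between contexts in K777A cells, with an R2 of 0.850 and 0.849, than in WT cells, with 0.597 and 0.591. The fitted effect of T at −2 was 0.47 and 0.51 in K777A and 0.24 and 0.23 in WT cells. At −3, the effect of C changed sign, from −0.11 and −0.10 in WT to 0.06 and 0.07 in K777A cells, and that of G from 0.05 and 0.05 in WT to −0.15 and −0.15 in K777A cells.

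Each combination of the 4 outer bases was then tested. For the 136 outer contexts that remain after strands are merged, the log2 odds of methylation were averaged over the 16 inner contexts, and the median over contexts was subtracted within each line, so that changes are relative to the overall loss. With limma and Benjamini-Hochberg adjustment, 110 outer contexts passed an adjusted p of 0.05, or 80.9%. Relative methylation rose in 61 of them and fell in 49. A quasi-binomial regression called 87, of which 37 rose and 50 fell, and 74 of its calls were shared with limma. It used reads summed over the inner contexts, so that the inner bases were not held equal. Without the centring, 133 outer contexts fell in K777A cells, or 97.8% of all, and none rose. The median change was then −1.08 on the log2 scale.

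The 4 outer contexts with the largest relative rise and the 4 with the largest relative fall are shown because they carry this result. They are written 5′ to 3′ with n for the inner bases, and capitals mark the bases at −3, −2, +2 and +3.
rise 1: CTncgnAG
rise 2: CTncgnAA
rise 3: TTncgnAA
rise 4: ATncgnAG
fall 1: GAncgnTC
fall 2: GAncgnCT
fall 3: GAncgnCC
fall 4: GAncgnGC

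All 4 rising contexts have T at −2 on both strands, since A at +2 is T at −2 of the other strand, and all 4 falling contexts have G at −3 followed by A at −2 on at least 1 strand. CTncgnAG was methylated to 13.1% and 15.3% in K777A and 16.4% and 15.0% in WT cells, so that the levels overlapped and the K777A mean was 90.4% of WT. Relative to the median context, its log2 odds rose by 0.90 (SE 0.03, limma adjusted p = 3.53e-73). GAncgnTC was methylated to 4.85% and 5.52% in K777A and 14.9% and 14.0% in WT cells, or 35.9% of WT, with a log2 change of −0.69 (SE 0.04, limma adjusted p = 5.30e-47). These p-values are small because limma found one common spread for all outer contexts (infinite prior degrees of freedom). On sites with at least 10 reads, where it did not, GAncgnTC had a smaller log2 change of −0.35 and no longer passed the threshold (limma adjusted p = 0.110), nor did GAncgnCT (limma adjusted p = 0.0576), and 35 outer contexts were called. Over all alternatives, the adjusted p of GAncgnTC ranged from 1.78e-47 to 0.110 and its change was negative in each.

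The other named contexts had log2 changes of 0.86 for CTncgnAA, 0.78 for TTncgnAA and 0.73 for ATncgnAG, and of −0.49 for GAncgnCT, −0.49 for GAncgnCC and −0.47 for GAncgnGC. CTncgnAA was at 87.3%, TTncgnAA at 83.2% and ATncgnAG at 82.9% of WT. CTncgnAG, CTncgnAA and TTncgnAA were also the 3 outer contexts that were not called lower without the centring.

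Among the 10 outer contexts with T at −2 on both strands, 9 rose and none fell. Of the 48 with T on 1 strand, 35 rose and 6 fell, and of the 78 without T, 17 rose and 43 fell. C at −3 on both strands was found in 10 outer contexts, all of which rose, and G at −3 on both strands in 10, of which 9 fell and none rose. The shares called are to be read against the 44.9% of all outer contexts that rose and the 36% that fell.

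**Figure D5:**
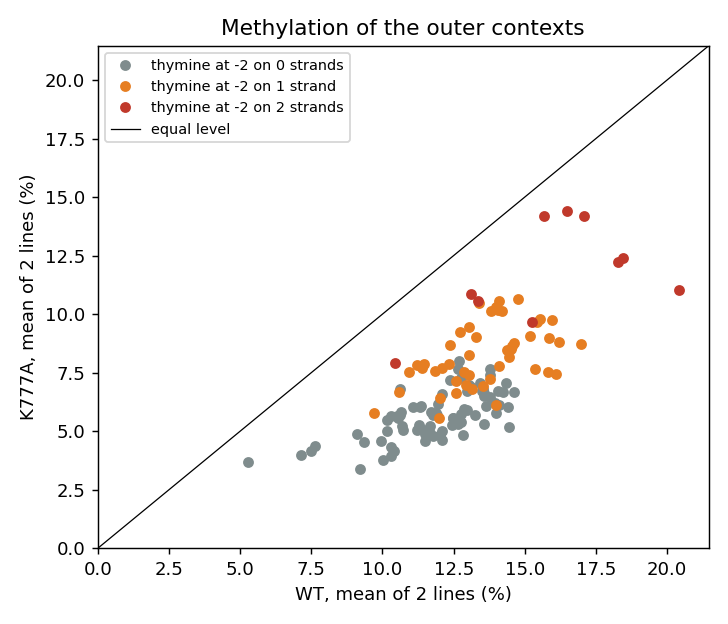
Mean methylation (%) of the 136 outer contexts in the 2 K777A lines against the mean in the 2 WT lines, averaged over the inner contexts, with points coloured by the number of strands with thymine at −2 and a line at equal levels. All points lie below the line, the 3 highest K777A means (14.2% to 14.4%) belong to contexts with thymine on both strands, and so does the point farthest from the line, at 11.03% against 20.43% in WT.

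Full contexts were compared within their inner class, that is after subtracting the line's mean log2 odds of all contexts with the same bases at −1 and +1. With strands merged, 1310 of 2080 contexts passed the threshold (63% by limma), 641 with a higher (30.8%) and 669 with a lower (32.2%) relative level in K777A cells. The count was 715 on sites covered in all lines, 869 with at least 5 reads and 97 of 1441 with at least 10 reads. The 3 largest changes in each direction are printed, with capitals at −3, −2, +2 and +3.
rise 1: CTccgtGG
rise 2: CTccgtGA
rise 3: CTccgtGT
fall 1: AGccgcAT
fall 2: AGccgtGC
fall 3: GCgcgaTA

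The 3 rising contexts share 7 bases and differ only in the base at +3. CTccgtGG was methylated to 9.84% and 10.6% in K777A and 7.52% and 7.11% in WT cells, an absolute gain to 140% of WT (CCACGGAG on the other strand; log2 change 1.87, SE 0.07, limma adjusted p = 0.000427). CTccgtGA was at 11.3% and 12.8% in K777A and 8.81% and 8.51% in WT cells, and CTccgtGT at 9.56% and 10.2% in K777A and 7.24% and 7.01% in WT cells. For these 3, the lowest K777A line exceeded the highest WT line, although the overall level was lower. The other 2 WT lines were at 11.9% and 10.9% for CTccgtGA, where they overlapped with K777A, and below both K777A lines for CTccgtGG and CTccgtGT. The remaining context of this kind, CTccgtGC, was looked up after these values were seen. It was at 8.62% and 9.84% in K777A and 11.3% and 10.9% in WT cells, with a relative log2 change of 1.04 (SE 0.07, limma adjusted p = 0.000453).

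AGccgcAT fell most, with 1.94% and 2.13% in K777A and 13.1% and 11.1% in WT cells, or 16.9% of WT (log2 change −1.68, SE 0.08, limma adjusted p = 0.000427). It did not pass on sites with at least 10 reads (log2 change −0.76, limma adjusted p = 0.310), and its adjusted p under the other alternatives ranged from 3.12e-05 to 0.00903. AGccgtGC was at 2.76% and 2.90% in K777A and 17.7% and 16.1% in WT cells, with a log2 change of −1.46. It has the same inner bases as CTccgtGG, from which it differs only in the outer bases. GCgcgaTA rested on few sites, between 121 and 326 per line, and was at 3.72% and 5.23% in K777A and 14.4% and 14.7% in WT cells (log2 change −1.43). Its change was −0.68 against the other 2 WT lines, 1 of which was at 8%, and −0.59 on sites covered in all lines.

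For genome regions without annotation, autosomes were divided into tiles of 1 Mb. Without centring, methylation fell in K777A cells in 2380 of 2401 tiles, or 99.1% (limma), and rose in none. Relative to the median tile, 40 tiles passed the threshold (1.67%), 28 higher (1.17%) and 12 lower (0.5%). The tile pattern was largely kept, since Pearson's r across tiles was 0.835 between the K777A and WT means, 0.856 between the K777A lines and 0.848 between the WT lines. These are descriptions across tiles, which are not independent and share base composition.

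The largest relative rises were in tiles with few CpG sites, at means of 3.03, 3.21 and 3.04 per 200 bp. The tile with the largest relative fall was close to these at 3.44, and the next falls were at 5.43 and 5.75. The tile chr15:17000001-18000000, which holds no protein-coding gene, was methylated to 4.69% and 5.49% in K777A and 5.95% and 5.19% in WT cells (GRCm38; relative log2 change 0.81, SE 0.18, limma adjusted p = 0.0223). Its levels overlapped between the groups, and against the other 2 WT lines its change turned to −0.17. chr3:141000001-142000000 followed with 0.77, a tile that holds Pdha2, Unc5c and Bmpr1b, and chr5:11000001-12000000 with 0.74. Against the other 2 WT lines, which were at 14.6% and 15.1% in the tile on chromosome 3, their changes were 0.16 and 0.57 and did not pass. The largest relative fall was in chr7:145000001-146000000, with Tpcn2, Mrgprf and Mrgprd, where methylation was 7.11% and 6.83% in K777A and 19.7% and 16.1% in WT cells (log2 change −0.58, SE 0.10, limma adjusted p = 0.00244). chr4:140000001-141000000, which holds the Padi genes of protein citrullination, was at −0.45 and chr11:94000001-95000000 at −0.44. The changes of these 3 tiles against the other 2 WT lines were −0.45, −0.35 and −0.11 and did not pass, and the tile on chromosome 4 was at −0.20 on sites with at least 5 reads. With the observed level set against that expected from density and inner bases, the 3 falls were −0.34, −0.20 and −0.30 and did not pass. The 3 rises were 0.75, 0.64 and 0.66 on that scale and passed.

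Tiles were also divided into 4 groups of 600 or 601 by mean CpG density. The median relative change was 0.19 in the group with the lowest density, 0.04 and −0.04 in the next groups, and −0.11 in the densest. Of the 28 tiles that rose, 24 were in the group with the lowest density, which held 600 tiles. Spearman's rho across the 2401 tiles between the change and CpG density was −0.605, and Pearson's r was −0.560. With the observed level set against that expected from density and inner bases, rho was −0.476, and 6 tiles passed the threshold. Calls of single tiles depended on the lines used: 1 tile was called without either K777A line, and 186 or 141 without WT replicate 1 or replicate 2. With a replicate block, 4 tiles were called, and against the other 2 WT lines or all 4 WT lines 0 were called (limma).

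Of 12049 gene bodies with at least 20 covered sites in every line, none passed limma's adjusted p of 0.05 relative to the median gene (0%), while 920 had an unadjusted p under 0.05. A quasi-binomial regression also called 0. The count of 0 does not show that gene bodies changed alike. Without centring, 6769 gene bodies fell in K777A cells (56.2%) and 5 rose, with a median log2 change of −1.06.

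The gene bodies with the largest changes that separated the lines, neither of which passed, were Mzt1 and Cish. Mzt1, which codes for a subunit of the γ-tubulin ring complex, had levels of 9.96% and 10.97% in K777A cells and was at 0% in both WT lines, on 21 to 49 sites per line (limma adjusted p = 0.632). One of the other WT lines was at 16.1%. Cish, which codes for a suppressor of cytokine signalling, was at 0% and 2.90% in K777A and 22% and 35.4% in WT cells, with a log2 change of −3.28 (limma adjusted p = 0.632).

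Gene lists were described by their counts, beside 6279 of all 12049 gene bodies with a change above 0 and a median of 0.02 relative to the median gene. Only listed genes with enough covered sites were counted. These were 19 of 40 housekeeping, 15 of 28 pluripotency and 19 of 28 imprinted genes. They were 25 of 30 germline, 34 of 35 chromatin regulator and 39 of 40 long neuronal genes, beside 12049 of 19358 among all genes. Long neuronal genes, among them cell adhesion genes that span large introns, had 36 of 39 members above 0 and a median of 0.27. None passed, and against the level expected from density and inner bases the median was 0.16, beside 0.01 over all gene bodies. On that scale, the medians of the lists that follow were −0.17 for germline, 0.24 for pluripotency, 0.11 for chromatin regulator, 0.13 for housekeeping and 0.05 for imprinted genes. The bodies of long neuronal genes held fewer CpG sites than those of all genes, with a median of 2.84 against 3.99 CpG sites per 200 bp. Without centring, 7 of the 39 long neuronal genes passed the threshold as lower (17.9%, beside 56.2% of all gene bodies). Their median log2 change was then −0.81, beside −1.06 over all, and the lines did not overlap in 38 of 39, beside 10281 of 12049. Cntnap5a was at 5.95% and 7.37% in K777A and 10.4% and 5.72% in WT cells, where the lines overlapped, and Ctnna2, which codes for a catenin of neurons, at 5.81% and 7.39% against 9.93% and 7.71%. At the other end of this list, Csmd2 was at 7.53% and 9.91% in K777A and 20.3% and 17.4% in WT cells, and Cdh13, a cadherin gene, at 8.40% and 10.2% against 19.1% and 18.9%.

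Germline genes had a median of −0.08, with 11 of 25 above 0, and 16 of the 25 fell without centring (64%, beside 56.2% of all). Tex101, which codes for a germ cell surface protein, was methylated to 5.76% and 3.88% in K777A and 25.5% and 32.2% in WT cells, and Meioc, a meiosis gene, to 2.96% and 2.38% against 8.12% and 16.7%. Zpbp, a gene of the sperm acrosome, was at 5.89% and 7.97% in K777A and 7.23% and 6.07% in WT cells, and Tdrkh, a piRNA pathway gene, at 13.6% and 6.44% against 12.7% and 3.87%, so that both overlapped between the groups. The line with the fewest sites covered 22 of Tex101, 28 of Meioc and 23 of Tdrkh.

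Pluripotency genes, which these cells transcribe, had a median of 0.22, with 11 of 15 above 0, and 5 of them fell without centring (33.3%, beside 56.2% of all). Fgf4, the growth factor gene of embryonic stem cells, was at 2.09% and 1.02% in K777A and 8.96% and 4.46% in WT cells. Tfcp2l1 was at 10.5% and 9.27% in K777A and 24.02% and 17.9% in WT cells. Zfp42 was at 4.03% and 5.57% in K777A and 4.48% and 0% in WT cells, and Zscan10 at 6.68% and 3.70% against 6.48% and 2.50%. The line with the fewest sites covered 29 of Zfp42 and 32 of Zscan10.

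Among chromatin regulators, 22 of 34 were above 0, with a median of 0.18, and 17 fell without centring (50%, beside 56.2% of all). The mouse Dnmt3b gene body, whose product these cells lack, was methylated to 6.45% and 8.35% in K777A and 19.9% and 27.9% in WT cells. Hdac1, which codes for a histone deacetylase, was at 5.56% and 7.79% in K777A and 19.2% and 16.6% in WT cells. Jarid2 was at 6.79% and 7.91% against 7.76% and 10.8%, and Rif1 at 14.1% and 7.96% against 15.6% and 10.99%, with overlap in both.

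Transcribed housekeeping genes had a median of 0.21, with 15 of 19 above 0, and 9 fell without centring (47.4%, beside 56.2% of all). Prpf8, a splicing factor gene, was at 10.3% and 14.7% in K777A and 32.0% and 25.4% in WT cells, and Mcm2, of the replicative helicase, at 5.08% and 8.997% against 19.3% and 15.4%. Eef1a1, the translation elongation factor gene, had low levels of 1.70% and 1.75% in K777A and 0.565% and 1.124% in WT cells. Hnrnpk was at 11.9% and 5.54% in K777A and 16.8% and 0.813% in WT cells, with 31 sites in the line with the fewest. Among imprinted genes, 15 of 19 were above 0, with a median of 0.15, and 9 fell without centring (47.4%, beside 56.2% of all). Igf2, the growth factor gene, was at 0.966% and 0.425% in K777A and 5% and 4.93% in WT cells, and Kcnq1 at 6.35% and 6.63% against 16.1% and 13.3%. Grb10 was at 6.30% and 7.66% in K777A and 12.2% and 8.05% in WT cells, and Plagl1 at 7.32% and 6.88% against 6.59% and 11.4%.

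Single CpG sites were compared where all 4 lines had at least 10 reads, which held for 1917 sites, 916 of them with 12 or more CpG per 200 bp. None passed limma's adjusted p of 0.05 (0%), and 325 had an unadjusted p under 0.05. Fisher's exact test on the reads summed over the 2 lines of each group, which compares these reads and leaves out the spread between lines, called 312, of which 273 were lower in K777A. Calls depended on the WT lines, with 99 sites called without WT replicate 1 and 133 without WT replicate 2.

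The 2 sites with the largest changes that separated the lines, and the sites of the outer contexts with the largest rise and the largest fall, are printed with 20 flanking bases in each direction (GRCm38). Capitals mark the CpG and its 3 flanking bases on each side. For each outer context, the site was the one with the most reads among sites with up to 100 reads per line outside repeat-masked sequence.
chr9:123924713-123924754: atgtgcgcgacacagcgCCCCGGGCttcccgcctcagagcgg
chr8:20298371-20298412: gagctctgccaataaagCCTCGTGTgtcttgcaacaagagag
chr4:146168325-146168366: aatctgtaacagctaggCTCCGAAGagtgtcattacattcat
chr4:147616656-147616697: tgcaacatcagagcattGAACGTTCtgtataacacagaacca

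At the site on chromosome 9, which is intergenic and CpG-dense, 14 of 18 and 6 of 12 reads were methylated in the WT lines and 0 of 25 and 0 of 42 in the K777A lines (limma adjusted p = 0.130). WT methylation was 77.8% (95% exact binomial interval 52.4% to 93.6%) and 50% (21.1% to 78.9%). The 0 of 67 reads of K777A allow up to 4.48%. It is a CCGG site, of the inner context with the largest loss. These intervals and limits cover counting error only, since the reads carry no molecular identifiers and can stem from the same molecule.

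At the intergenic site on chromosome 8, 12 of 44 and 11 of 68 reads were methylated in the K777A lines and 0 of 72 and 0 of 44 in the WT lines (limma adjusted p = 0.130). The 0 of 116 reads of WT allow up to 2.59%. Its printed window occurs 7 times in the chromosomes, so that reads of copies cannot be told apart with certainty.

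The site of CTncgnAG lies in an intron of Zfp600 and is the only CpG within its 200 bp. It is a CCGA site, and 8 of 24 and 11 of 47 reads were methylated in K777A and 5 of 11 and 19 of 40 in WT cells. The K777A lines were at 33.3% and 23.4% and the WT lines at 45.5% and 47.5%. Its log2 change of −0.98 did not pass (limma adjusted p = 0.515). The site of GAncgnTC lies in an intron of Zfp979, also with no second CpG in 200 bp. Methylated reads were 1 of 29 and 4 of 28 in K777A and 6 of 17 and 4 of 14 in WT cells, or 3.45% and 14.3% against 35.3% and 28.6%. Its log2 change of −2.19 did not pass either (limma adjusted p = 0.348), and its window occurs 4 times in the chromosomes. Zfp600 and Zfp979 belong to a cluster of closely related zinc finger genes.

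For 5 of the other named outer contexts, sites chosen in the same way did not separate the lines, and none passed. The site of CTncgnAA, at position 14771338 of chromosome 7, had 1 of 49 and 1 of 61 methylated reads in K777A and 0 of 20 and 1 of 45 in WT cells. The site of TTncgnAA, at position 147420215 of chromosome 4, had 4 of 38 and 5 of 24 in K777A and 2 of 14 and 9 of 54 in WT cells. Among the falling contexts, the site of GAncgnCC, at position 123935925 of chromosome 9, had 13 of 26 and 12 of 36 in K777A and 4 of 10 and 12 of 34 in WT cells. The sites of GAncgnCT and GAncgnGC lie in the CpG-dense promoter shared by Sfi1 and Drg1. The former had 1 of 23 and 0 of 50 in K777A and 5 of 25 and 0 of 20 in WT cells, and the latter had 1 of 47 and 0 of 59 against 1 of 58 and 1 of 72.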

How the data were processed

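The deposited file holds raw counts made by the authors: for each line and CpG site of the mouse genome (mm10, GRCm38), the methylated reads and all reads. Per the labels and the paper's methods, read pairs were trimmed with Cutadapt (1.12 in the submitters' processing notes), aligned with Bismark 0.18.1 and Bowtie 1.2, cleared of pairs holding at least 3 methylated cytosines outside CpG, and collapsed over both strands. Selection lasted 10 days per the labels, a time the methods give as longer. WT lines were assigned by library-name prefix, and replicates are independently derived lines.

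Every autosomal site with at least 1 read was used, unless another minimum is given. Flanks, density, repeat mask and regions were read from GRCm38, with gene models of GENCODE vM21. Log2 odds of mean methylation, offset by 0.5 over the site number, were compared with limma 3.58.1 (R 4.3.3, moderated variance with trend, Benjamini-Hochberg, threshold 0.05), after each line was centred on its median, and for contexts within their inner class without that step. Contexts needed 20, tiles 100 and gene bodies (from 2000 bp after the start) 20 covered sites per line. Line means were compared by exact permutation tests. Python 3.11.15 with numpy 2.4.6 and scipy 1.17.1 was used.

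The features, gene lists, tests and alternatives were chosen with earlier results of these data known. Named features are the largest changes in each direction that pass the threshold and separate the lines on the tested log2 scale (4 outer contexts, 3 contexts within inner class, 3 tiles, 5 gene bodies, 4 sites), or the single largest that separates the lines where none pass, and the 2 highest and 2 lowest of each gene list. The fits were tested on simulated data with known changes. Alternatives changed the read minimum, the sites, the WT lines, the centring, the replicate block and the test.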

Additional observations from a re-analysis of the deposited data

How the results depend on the processing

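The direction of the level, the T share at −2, the readout of position 2 and the density slope held under every alternative run. The difference in level was −7.86 percentage points on sites with at least 10 reads (where sites with 12 or more CpG per 200 bp made up 59.8% and 24.01% in K777A and 12.02% and 17.4% in WT lines), −4.96 without CCGG sites, −8.69 against the other 2 WT lines and −7.39 against all 4. The intron-promoter gap turned, to 0.014 with at least 5 reads, 0.14 with at least 10 reads and 0.032 without CpG-dense sites. The T share at −2 differed by 5.26 percentage points with at least 5 reads, 5.88 with 10, 4.93 on sites covered in all lines, 4.48 without CCGG sites, 5.004 without CpG-dense sites, 5.09 with reads summed, 4.47 against the other WT lines and 4.63 against all 4. The readout of position 2 differed by 0.161 with at least 5 reads, 0.184 with 10, 0.127 without CCGG sites and 0.119 against the other WT lines.

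Outer contexts called were 35 with at least 10 reads. Contexts within inner class called were 869 with 5 reads, 97 with 10 (of 1441 tested) and 715 on sites covered in all lines. Tiles called were 0 with 5 reads, 2 with 10 (of 228 tested), 0 on sites covered in all lines, 1 without CCGG sites, 1 with reads summed, 0 against the other WT lines, 0 against all 4, 6 against the expected level, 0 by quasi-binomial regression and 2380 without centring. Gene bodies called were 6774 without centring. Single sites called were 14 with at least 20 reads, 4 against all 4 WT lines and 312 by Fisher's exact test. With 1 line left out, tiles called ranged from 1 to 186 and single sites from 0 to 133, where the lone line is assumed to vary like the others. The cause was not tested.

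The replicate block gave 108 outer contexts, 1260 contexts within inner class, 4 tiles, 0 gene bodies and 0 single sites. Same-numbered lines deviated with correlations between −0.129 and −0.0205 over features. With 2 lines per group, these values cannot decide whether such lines belong together. With the crossed pairing, chosen after seeing the data, 110 outer contexts and 0 tiles were called. Of the named features, the tile chr15:17000001-18000000 turned to −0.17 against the other WT lines. Tiles, gene bodies and contexts rest on a median of 2 reads per covered site in the K777A lines and 4 and 3 in the WT lines.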
